A study of Mus musculus with 51 samples.

Results

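The distal early pachynema H3K9ac peaks were the 794 of 7744 peaks in the H3K9ac list of early pachynema that lay more than 500 bp from the 5′ end of every GENCODE M21 transcript. The other 6950 peaks of that list lay at a transcription start site (TSS), taken as 500 bp on either side of a 5′ end. The selection rule used the peak call and its position, so both are given below as descriptions without a test. The list came from 1 library, and no second H3K9ac library of this stage was analysed here.

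The nuclei came from testes of adult wild-type C57Bl/6J males and carried no treatment. They were fixed with formaldehyde and sorted by flow cytometry on DNA content and SCP3, with STRA8 for leptonema (LE) and with H1t and SCP1 for zygonema (ZY), early pachynema (EP), late pachynema (LP) and diplonema (DI). ChIP-Seq peak lists were analysed for H3K9ac (1 library a stage, experiment 1), H3K4me3 with an EpiCypher antibody (2 libraries a stage, experiments 1 and 2) and H3K4me2/3 with an Abcam antibody (1 library a stage, experiment 2), 20 lists with 238528 peaks in all. The sorts were not pure, and the EP sort holds some zygotene nuclei. The antibody field of the H3K9ac samples names H3K4me3, whereas their titles and the methods of the study give H3K9ac for the same catalogue number. A peak was either called or not, with no height and no read count, so the depth behind a call is unknown and a region without a peak can carry the mark below the threshold of the caller.

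Acetylation of lysine 9 of histone H3 is found at active promoters and at active enhancers. Trimethylation of lysine 4 is found mainly at active promoters, while dimethylation spreads further into enhancers and the flanks of promoters. In spermatocytes before pachynema the methyltransferase PRDM9 also adds H3K4me3 at recombination hotspots. In pachynema, when homologous chromosomes are fully synapsed, transcription rises widely, and a set of long non-coding precursors gives rise to the pachytene piRNAs.

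The 794 regions fell into 6 classes by methylation marks that the selection did not use. H3K4me3 was called in both EP libraries at 91 regions. Another 145 regions had H3K4me3 both in LE or ZY and in a later library without meeting that condition. Of the others, H3K4me3 was called in LE or ZY alone at 50 regions and in EP, LP or DI alone at 198 regions. The remaining regions had no H3K4me3 peak in any of the 10 libraries, 250 of them with an H3K4me2/3 peak at 1 or more stages and 60 with neither. One sequence of each class is given here, the central 300 bases of the widest region named below in that class, so that the DNA behind the calls can be read. They are from the plus strand of the RefSeq genome, GRCm38.p6 (mm10), in lower case, with capitals for the words searched for as described further below.
chr7:66733017-66733316 (H3K4me3 in both EP libraries): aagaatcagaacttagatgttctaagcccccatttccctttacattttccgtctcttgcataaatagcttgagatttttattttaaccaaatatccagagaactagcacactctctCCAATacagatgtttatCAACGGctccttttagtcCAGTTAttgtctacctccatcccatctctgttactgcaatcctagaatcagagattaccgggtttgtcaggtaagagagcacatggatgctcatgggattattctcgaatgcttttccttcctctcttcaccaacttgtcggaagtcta
chr9:67733468-67733767 (H3K4me3 early and later): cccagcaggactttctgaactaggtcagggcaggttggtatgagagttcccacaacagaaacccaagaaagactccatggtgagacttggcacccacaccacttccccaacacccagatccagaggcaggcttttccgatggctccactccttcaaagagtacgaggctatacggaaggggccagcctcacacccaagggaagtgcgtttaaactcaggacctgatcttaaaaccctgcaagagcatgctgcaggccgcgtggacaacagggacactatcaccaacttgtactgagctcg
chr16:90011310-90011609 (H3K4me3 in LE or ZY alone): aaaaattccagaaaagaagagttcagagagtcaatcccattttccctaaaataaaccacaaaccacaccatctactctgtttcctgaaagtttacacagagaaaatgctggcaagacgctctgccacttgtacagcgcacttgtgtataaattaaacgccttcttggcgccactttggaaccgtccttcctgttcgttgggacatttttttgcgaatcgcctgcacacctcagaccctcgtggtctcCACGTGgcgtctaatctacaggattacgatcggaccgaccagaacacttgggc
chr17:66206297-66206596 (H3K4me3 in EP, LP or DI alone, here in both DI libraries): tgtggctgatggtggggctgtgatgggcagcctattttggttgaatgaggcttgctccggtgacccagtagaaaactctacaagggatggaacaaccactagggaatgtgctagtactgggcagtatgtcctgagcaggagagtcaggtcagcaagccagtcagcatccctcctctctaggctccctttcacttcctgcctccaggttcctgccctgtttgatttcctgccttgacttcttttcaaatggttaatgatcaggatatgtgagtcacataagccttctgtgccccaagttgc
chr17:27305505-27305804 (H3K4me2/3 without H3K4me3): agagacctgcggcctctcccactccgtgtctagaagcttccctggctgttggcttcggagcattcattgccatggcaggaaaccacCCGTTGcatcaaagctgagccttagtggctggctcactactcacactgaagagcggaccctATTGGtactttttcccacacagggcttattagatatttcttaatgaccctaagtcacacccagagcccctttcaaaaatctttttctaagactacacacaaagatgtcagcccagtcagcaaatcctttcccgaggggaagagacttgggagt
chr17:27345883-27346182 (neither methylation mark): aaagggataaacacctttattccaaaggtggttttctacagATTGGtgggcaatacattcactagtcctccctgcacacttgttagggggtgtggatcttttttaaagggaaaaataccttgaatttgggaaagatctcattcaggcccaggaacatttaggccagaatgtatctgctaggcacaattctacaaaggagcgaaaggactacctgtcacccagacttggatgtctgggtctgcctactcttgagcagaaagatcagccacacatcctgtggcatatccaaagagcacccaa
The sequence of the first class held the CCAAT word once and a MYB word in both orientations, all of which are spelled out with the other words below. That of the third class held an E-box, and 14 CpG dinucleotides in 300 bases against 5 in the first. In the fifth, a MYB word and the CCAAT word both lay on the minus strand, as did the CCAAT word of the sixth. The second and the fourth sequence held none of the words.

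The regions were mostly outside genes. Of the 794, 443 were intergenic (55.8%, exact binomial 95% interval 52.3 to 59.3), 220 lay in introns (27.7%) and 131 touched an exon (16.5%). Coding sequence was overlapped by 89 regions (11.2%). The distal ZY H3K9ac peaks that overlapped none of these regions, 7095 in number, lay in intergenic sequence less often, at 37.0% (35.9 to 38.1), and in introns more often, at 46.6%. All intervals for shares of regions cover counting error over regions and say nothing of variation between libraries.

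The median distance to the nearest 5′ end was 7727 bp, with quartiles at 2765 bp and 19167 bp. Within 1000 bp of a 5′ end lay 76 regions (9.57%), and 51 (6.42%) were more than 50000 bp away. The farthest lay 291701 bp from any 5′ end. Of the 300 regions within 5000 bp of a 5′ end, 156 were downstream of the start and 144 upstream. The nearest 5′ end belonged to a protein-coding gene at 372 regions (46.9%), to a lincRNA at 119 (15.0%) and to a miRNA at 47 (5.92%). These types make up 40.6%, 10.2% and 4.01% of the annotated genes on the same chromosomes, where each gene counts once. The nearest 5′ end was taken over all transcripts, so these shares do not have the same base. Of the 47 regions nearest to a miRNA, 34 lay in 8 of the runs of neighbouring regions described further below. The miRNA share thus mostly counts neighbouring regions of the same few loci, and its difference from 4.01% was not tested.

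**Figure D1:**
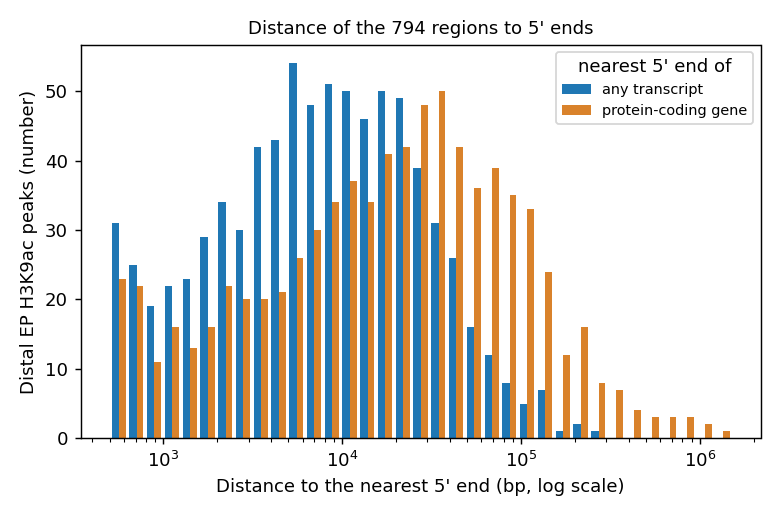
Number of distal EP H3K9ac peaks (vertical axis) by distance from the edge of the peak to the nearest 5′ end in bp (log scale), for 5′ ends of any transcript (blue) and of protein-coding genes (orange). The median distance was 7727 bp to any 5′ end and 21008 bp to that of a protein-coding gene.

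Peaks lay close to the limit of 500 bp on both sides. The nearest regions outside were a peak of 194 bp upstream of Fem1a at 506 bp, a peak of 159 bp in an intron of Ube2u at 507 bp and a peak of 166 bp in an intron of Usp5, a deubiquitinase gene, at 514 bp. The farthest peaks inside lay 493 bp from starts of Catsperg1, a subunit of the sperm calcium channel, and of Cpeb4, and 490 bp from a start of Hook3. Between 501 and 600 bp there were 26 regions, and between 401 and 500 bp there were 30 peaks counted as TSS peaks. A second annotation moved some regions across the limit, since 123 of the 794 (15.5%) had the 5′ end of a RefSeq transcript within 500 bp, 29 of them that of a curated transcript. The 123 include 36 of the 91 regions with H3K4me3 in both EP libraries (39.6%) and 14 of the 310 without H3K4me3 in any library (4.52%). They also include the regions named here near Fem1a, Ythdc2, Cers3 and Irx3.

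The genes nearest to the regions were marked at their own TSSs about as often as coding genes in general. A total of 665 protein-coding genes were the nearest coding gene of at least 1 region, and 227 of them (34.1%, 30.5 to 37.9) had an H3K9ac peak at a TSS in EP, beside 35.7% of all 20780 coding genes. For H3K4me3 at a TSS in both EP libraries the share was 23.6% (20.4 to 27.03), beside 25.3% of all coding genes. For H3K9ac the share was 27 of 56 (48.2%, 34.7 to 62.0) for genes at 501 to 1000 bp and 61 of 176 (34.7%, 27.7 to 42.2) for genes beyond 50000 bp, with intervals that overlap.

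Genes of 5 meiotic gene lists held or neighboured a region at most once a list, and 3.38% of all protein-coding genes did so. Among 18 regulators of the pachytene programme the 1 gene was Ythdc2, an RNA helicase gene needed for meiosis, with a region of 1051 bp starting 551 bp downstream of a 5′ end. This region had the 5′ end of a RefSeq transcript within 500 bp, an H3K9ac peak in ZY, H3K4me3 in all 10 libraries and H3K4me2/3 at all 5 stages. Among 19 genes of the piRNA pathway it was Tdrd3, a Tudor domain gene, at 83951 bp, and among 26 genes of spermiogenesis it was Odf1, of the outer dense fibres of the sperm tail, at 20872 bp. None of 14 genes of synapsis and the chromosome axis and none of 21 genes of recombination was linked to a region. At their own TSSs an H3K9ac peak in EP was called for 14 of 18 pachytene regulators, 18 of 19 piRNA genes, 12 of 14 synapsis genes, 16 of 21 recombination genes and 8 of 26 spermiogenesis genes, beside 35.7% of all coding genes.

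H3K9ac calls at marker genes were read beside the labelled stage. An EP H3K9ac peak lay at a TSS of 5 of 6 spermatocyte genes (Sycp1, Sycp2, Sycp3, Spo11 and Hormad1) and of 6 of 7 genes of pachynema, among them Mybl1, Ldhc and Piwil1. None was called at 5 spermatogonial, 5 spermatid, 5 Sertoli cell, 5 Leydig cell and 2 blood cell genes, nor at Stra8. The ZY list had calls at 6 spermatocyte, 3 pachynema and 3 spermatogonial genes, and the LP list at 3, 4 and 0. At Stra8 and the spermatid, Sertoli, Leydig and blood cell genes no stage had a call, so they do not tell the stages apart. Among all coding genes 35.7% had an EP call. Of all these markers Gfra1, the spermatogonial receptor of GDNF, was the nearest coding gene of a region, at a distance of 335180 bp.

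The regions were narrower than the TSS peaks of the same list. Their median width was 429 bp (quartiles 233 and 687 bp), against 709 bp (427 and 1067 bp) for TSS peaks and 630 bp for the other distal ZY H3K9ac peaks. A width of 1000 bp or more was reached by 92 regions (11.6%) and by 2021 TSS peaks (29.1%). The widest region was 4193 bp and the widest TSS peak 9893 bp.

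**Figure D2:**
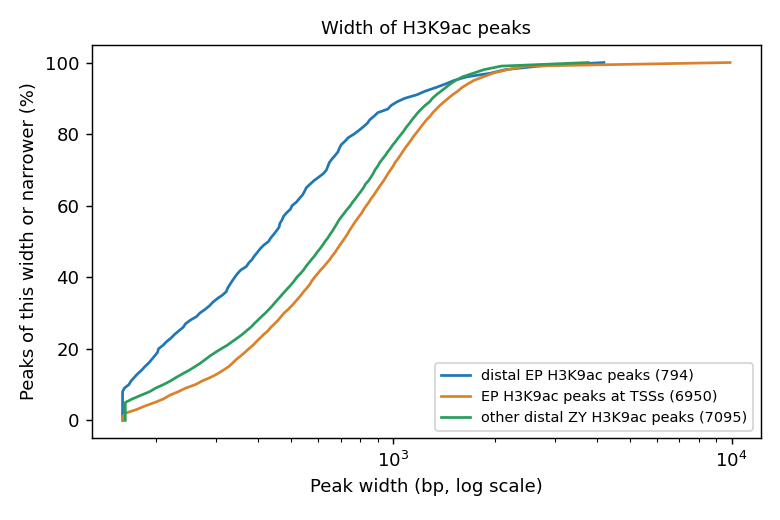
Cumulative share of peaks (vertical axis, %) by peak width in bp (log scale) for the distal EP H3K9ac peaks, the EP H3K9ac peaks at TSSs and the other distal ZY H3K9ac peaks. The curve of the 794 regions lies left of the others over most of its range, with medians of 429, 709 and 630 bp.

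The first question was how far H3K9ac at these regions was shared with the stages before and after. A peak was called at 290 regions in ZY (36.5%, 33.2 to 40.0) and at 74 in LP (9.32%, 7.39 to 11.6), against 85.2% and 21.4% of all EP H3K9ac peaks. In LE 48 regions (6.05%) had a peak and in DI 46 (5.79%). H3K9ac was called in EP and at no other stage at 466 regions (58.7%), and in ZY and EP alone at 225 (28.3%). Among TSS peaks of the EP list, 90.7% had a ZY peak, 36.2% an LE peak, 22.8% an LP peak and 5.84% a DI peak. In DI the shares of regions and of TSS peaks were both near 6%. The DI list held 414 peaks at TSSs and the LP list 1593, beside 6950 in EP, which limits the shares that TSS peaks can reach. There were no replicates of H3K9ac, so these shares were not tested. The lists themselves differed in length, with 16003 peaks in ZY, 1727 in LP, 2823 in LE and 516 in DI, and the part of list length in these shares was not tested.

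Read from the other lists, the overlap looked different. The regions took up 73 of 134 distal H3K9ac peaks of LP (54.5%), 46 of 102 of DI (45.1%) and 45 of 117 of LE (38.5%). Of the 7349 distal H3K9ac peaks of ZY they took up 254 (3.46%).

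H3K9ac in EP and LP but not in ZY was found at 34 regions. They were wide, with a median of 1307 bp, and 24 were intergenic. H3K4me3 was called at 6 of the 34 in LE or ZY and at 32 in EP, LP or DI. The H3K4me2/3 calls at these 34 regions numbered 9 in LE, 14 in ZY, 30 in EP, 32 in LP and 32 in DI. The widest was chr17:66204449-66208444 (3996 bp), 11097 bp downstream of the start of the lincRNA gene CT025671.4. It had H3K4me3 in both DI libraries, in none of the other 8, and H3K4me2/3 in EP, LP and DI. Among the others of the 5 widest, chr11:103423593-103426921 (3329 bp, near the lincRNA gene Gm39397), chr5:113338903-113342203 (3301 bp, near Mir7230) and chr7:69908760-69911436 (2677 bp, 24400 bp from the pseudogene Gm44690), shared H3K4me3 in LP experiment 2 and in both DI libraries, and H3K4me2/3 in EP, LP and DI. The fourth by width, chr10:75850075-75852767 (2693 bp, 7425 bp from Mif, which encodes a cytokine), had no H3K4me3 peak in any library and H3K4me2/3 in LP and DI.

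H3K4me3 was called at fewer of these regions than of the TSS peaks in every library. The shares of the 794 regions in experiments 1 and 2 were 18.5% and 27.5% in LE, 20.5% and 19.02% in ZY, 21.8% and 12.1% in EP, 17.8% and 33.8% in LP, and 32.7% and 49.5% in DI. Both DI libraries were high, together with LP experiment 2, and EP experiment 2 was the lowest. The TSS peaks gave between 65.6% in EP experiment 2 and 91.8% in DI experiment 2. The mean over libraries was 25.3% ± 10.9 (SD, n = 10) for the regions and 80.4% ± 9.57 for the TSS peaks. The difference of −55.1 percentage points was negative in 10 of 10 libraries and is given as a description with no test. The sets were split by distance to a TSS, near which H3K4me3 is mainly found. The TSS peaks were also wider, with a median of 709 bp against 429 bp. The part of either in the difference was not tested.

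H3K4me3 in both EP libraries was found at 91 regions (11.5%, 9.33 to 13.9), beside 59.4% of all EP H3K9ac peaks. The test of EP against the other stages did not pass the threshold. The means were 16.9% ± 6.86 (SD, n = 2) and 27.4% ± 11.0 (n = 8, exact permutation test, two-sided, p = 0.267, adjusted p = 0.356). The 8 libraries come from LE, ZY, LP and DI, so their spread holds differences between stages too. The regions were selected by H3K9ac in EP, and the part of that selection was not tested. The difference of −10.5 points was −0.598 within experiment 1 and −20.3 within experiment 2, −5.62 without EP experiment 2 and −1.56 with lists of equal length. Nor did the test of LE and ZY against EP, LP and DI pass. The means were 21.4% ± 4.14 (n = 4) and 27.9% ± 13.5 (n = 6, exact permutation test, p = 0.419, adjusted p = 0.419). Within experiment 1 the difference, early minus later, was −4.58 percentage points, and within experiment 2 it was −8.54. When each H3K4me3 list was cut to its 4883 widest peaks, as many as in the shortest list, the difference was −10.6 points and the test passed (exact permutation, adjusted p = 0.0127). The share at the regions as a percentage of that at TSS peaks of the same library was 48.0 and 53.9 in DI and between 18.4 and 39.6 in the other 8 libraries. Within each stage the library with the longer list had the higher of its pair of values.

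**Figure D3:**
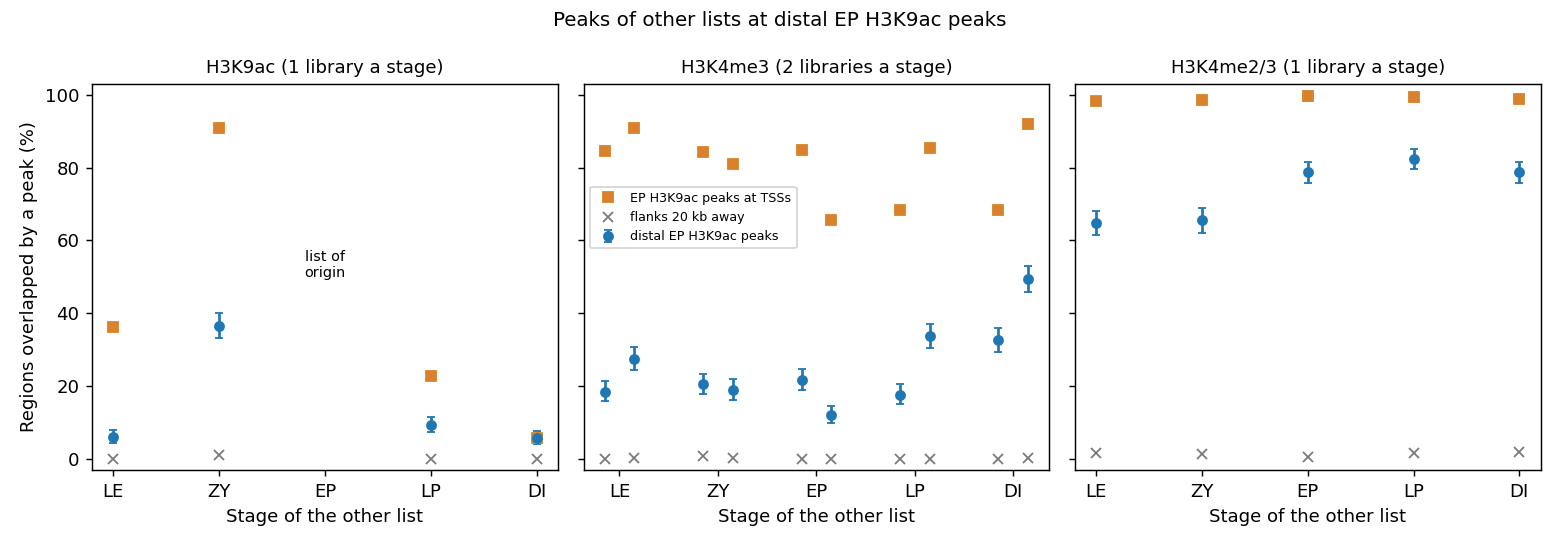
Share of regions overlapped by a peak (vertical axis, %) in each of the other 19 lists, by stage, for the 794 distal EP H3K9ac peaks (circles, bars are exact binomial 95% intervals), the 6950 EP H3K9ac peaks at TSSs (squares) and 1428 windows of the same widths 20 kb away (crosses). Circles lie below squares in all lists but that of DI H3K9ac, where they coincide near 6%, and windows 20 kb away stay at or below 1.96%. Windows that touched a TSS or an EP H3K9ac peak had been left out.

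H3K4me3 in both libraries of a stage was most frequent in DI. Both DI libraries had a peak at 246 regions (31.0%), against 132 in LE, 115 in ZY, 91 in EP and 115 in LP. Both DI libraries and neither EP library had a peak at 140 regions. The opposite, both EP libraries and neither DI library, was seen at 4 regions. H3K4me3 in both ZY libraries and in none of the 6 later ones was seen at 6 regions. The H3K4me3 lists held 6647 and 4883 peaks in EP and 6645 and 12071 in DI. At TSS peaks the share rose from 65.6% in EP to 91.8% in DI in experiment 2, and fell from 84.8% to 68.2% in experiment 1. Counts over both libraries of a stage are not given here for TSS peaks, and the part of list length was not tested.

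The regions held most of the distal H3K4me3 of EP. Of the distal H3K4me3 peaks in EP, 164 of 251 (65.3%) in experiment 1 and 95 of 167 (56.9%) in experiment 2 overlapped one of the 794 regions. In LP the shares were 63.3% and 21.4%, and in DI 28.1% and 14.3%. In ZY, whose lists hold 8352 and 4292 distal H3K4me3 peaks, they were 1.82% and 3.36%.

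The course of H3K4me3 over stages was compared with that at the other distal ZY H3K9ac peaks, since both sets lie away from TSSs. At the ZY peaks H3K4me3 was called at 70.4% and 38.9% in the ZY libraries and at 20.1% and 19.1% in LE. In EP, LP and DI it was called at no more than 2.86% of them in any library. The share at the 794 regions minus the share at the ZY peaks was −15.8 points ± 25.6 (SD, n = 4) in LE and ZY and 26.9 points ± 12.5 (n = 6) later. The difference between these, −42.7 points, is given as a description with no test. The sets were selected on H3K9ac of different stages, the ZY set leaves out what overlaps the 794 regions, and the part of this selection in the difference was not tested.

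**Figure D4:**
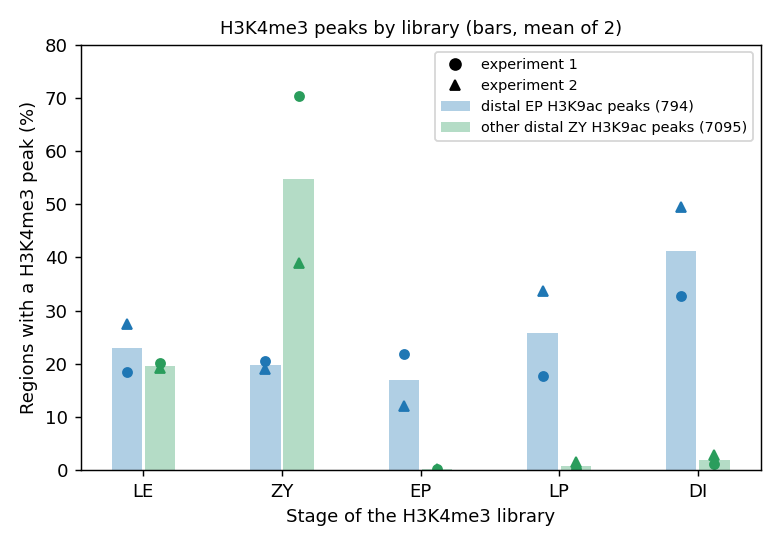
Share of regions with an H3K4me3 peak (vertical axis, %) in each library of the 5 stages, for the 794 distal EP H3K9ac peaks and the 7095 other distal ZY H3K9ac peaks; bars are means of 2 libraries, circles experiment 1 and triangles experiment 2. The ZY set peaks at 70.4% in ZY and falls to at most 2.86% from EP on, while the EP set reaches 32.7% and 49.5% in DI.

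H3K4me2/3 was the mark most often found with H3K9ac at these regions. It was called at 515 of 794 in LE (64.9%), 520 in ZY (65.5%), 626 in EP (78.8%, 75.8 to 81.6), 654 in LP (82.4%) and 626 in DI (78.8%). All EP H3K9ac peaks together had an EP H3K4me2/3 peak at 97.5%. An H3K4me2/3 peak at all 5 stages was found at 402 regions (50.6%), at EP, LP and DI alone at 75 (9.45%) and at no stage at 62 (7.81%). With 1 library a stage these shares were not tested between stages. The EP H3K4me2/3 list was also longer and wider, with 17561 peaks of median 864 bp. The EP H3K4me3 lists held 6647 and 4883 peaks of median 491 and 380 bp. The part of list length and width in the rank of the marks was not tested.

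The classes differed in their H3K9ac in other stages, which the classes did not use. At the 91 regions with H3K4me3 in both EP libraries, 68 had H3K9ac in ZY (74.7%) and 39 in LP (42.9%). At the 145 regions with H3K4me3 both early and later, 114 had H3K9ac in ZY (78.6%) and 11 in LP (7.59%). At the 198 other regions with H3K4me3 in EP, LP or DI alone, 37 had H3K9ac in ZY (18.7%) and 22 in LP (11.1%). At the 50 regions with H3K4me3 in LE or ZY alone, 30 had H3K9ac in ZY (60.0%) and 0 in LP. At the 250 regions with H3K4me2/3 and no H3K4me3, 41 had it in ZY and 2 in LP.

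The widest of the 91 regions with H3K4me3 in both EP libraries was chr7:66731745-66734588 (2844 bp), whose central sequence is printed above. It lay 3216 bp upstream of Gm10623 and 8916 bp from the start of Cers3, a ceramide synthase gene, and had H3K9ac in ZY but not in LP, 7 of 10 H3K4me3 calls and all 5 H3K4me2/3 calls. Regions with H3K9ac in ZY, EP and LP and H3K4me3 in both EP libraries numbered 28, and 17 of them had H3K9ac at all 5 stages. Those 17 were mostly narrow (median 242 bp) and are described with their repeat content further below. The widest of the 28 was chr17:13589889-13591546 (1658 bp), in introns of 2700054A10Rik. It is one of the 17 and had a peak in all 19 other lists. The region of 1583 bp at chr2:90889095-90890677, in an exon of C1qtnf4, 3235 bp from its start, had all 10 H3K4me3 and all 5 H3K4me2/3 calls, 64.9% GC and a ratio of observed to expected CpG of 0.930. Those at chr7:73617727-73619299, near the lincRNA gene Gm44738, and chr4:133813231-133814558, near Gm12974, also had all of these calls, with GC contents of 59.8% and 73.3%. The region of 1617 bp at chr11:28364627-28366243, near Gm12081, had 8 of 10 H3K4me3 calls.

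Of the regions with H3K4me3 in LE or ZY alone, the 5 widest were as follows. An intron of Tiam1, which encodes an exchange factor for the GTPase RAC1, held the first, chr16:90010767-90012152, and its H3K4me3 call came from LE experiment 2 alone. An exon of the homeobox gene Irx3 (chr8:91797676-91798660) was also called in LE experiment 2 alone. Upstream of Hexim1, an inhibitor of the elongation factor P-TEFb, chr11:103114681-103115495 was called in both LE libraries, and so was chr17:47321988-47322756 in an intron of Trerf1. All 4 carried H3K4me2/3 at all 5 stages. The region chr10:75847934-75848824, 10510 bp upstream of Gstt2, a glutathione transferase gene, had all 4 LE and ZY calls.

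Wider regions held more peaks of other lists. H3K4me3 in any of the 10 libraries was found, in 4 groups of equal size from the narrowest to the widest, at 102 of 198 (51.5%), 115 of 199 (57.8%), 124 of 198 (62.6%) and 143 of 199 (71.9%). LP H3K9ac was called at 5.05%, 5.53%, 8.08% and 18.6% of them. The share with EP H3K4me2/3 stayed between 75.8% and 80.8%. Wider regions have more length to overlap by, and that part was not tested.

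A part of the regions lay in runs. When neighbours with gaps of up to 20000 bp were joined, a limit set after the positions had been seen, 102 regions (12.8%) fell into 18 runs of 3 or more. These 102 held 22.5% of the summed width of all regions, and 17 of the 22 regions of 2000 bp or more. Their median width was 691.5 bp against 398 bp for the other 692, and 80 of the 102 were intergenic (78.4%). Spans ran from 7844 to 46628 bp. A TSS H3K9ac peak of the same list lay within 5000 bp of a region in 11 of the 18 runs, and a miRNA gene had the nearest 5′ end of a region in 8 runs.

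The longest run held 13 regions on chromosome 9, between 67706765 and 67753392, around Mir7241 and Mir7242. Its widest region, chr9:67732143-67735093 (2951 bp), had H3K9ac in ZY, EP, LP and DI, and H3K4me3 in ZY experiment 2, LP experiment 2 and both DI libraries. H3K4me2/3 was called at 1 of the 13 in each of LE, ZY and EP, at 5 in LP and at 7 in DI. A run of 8 lay on chromosome 17, between 27295466 and 27313652, beside a TSS peak of 4870 bp at Mir7214 and Gm49793. It held the widest of all regions, chr17:27303559-27307751 (4193 bp), with no H3K4me3 peak in any library, no other H3K9ac peak and H3K4me2/3 in LP alone. Across the 8, H3K4me2/3 was called at 0 in LE, ZY and EP, at 4 in LP and at 2 in DI.

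**Figure D5:**
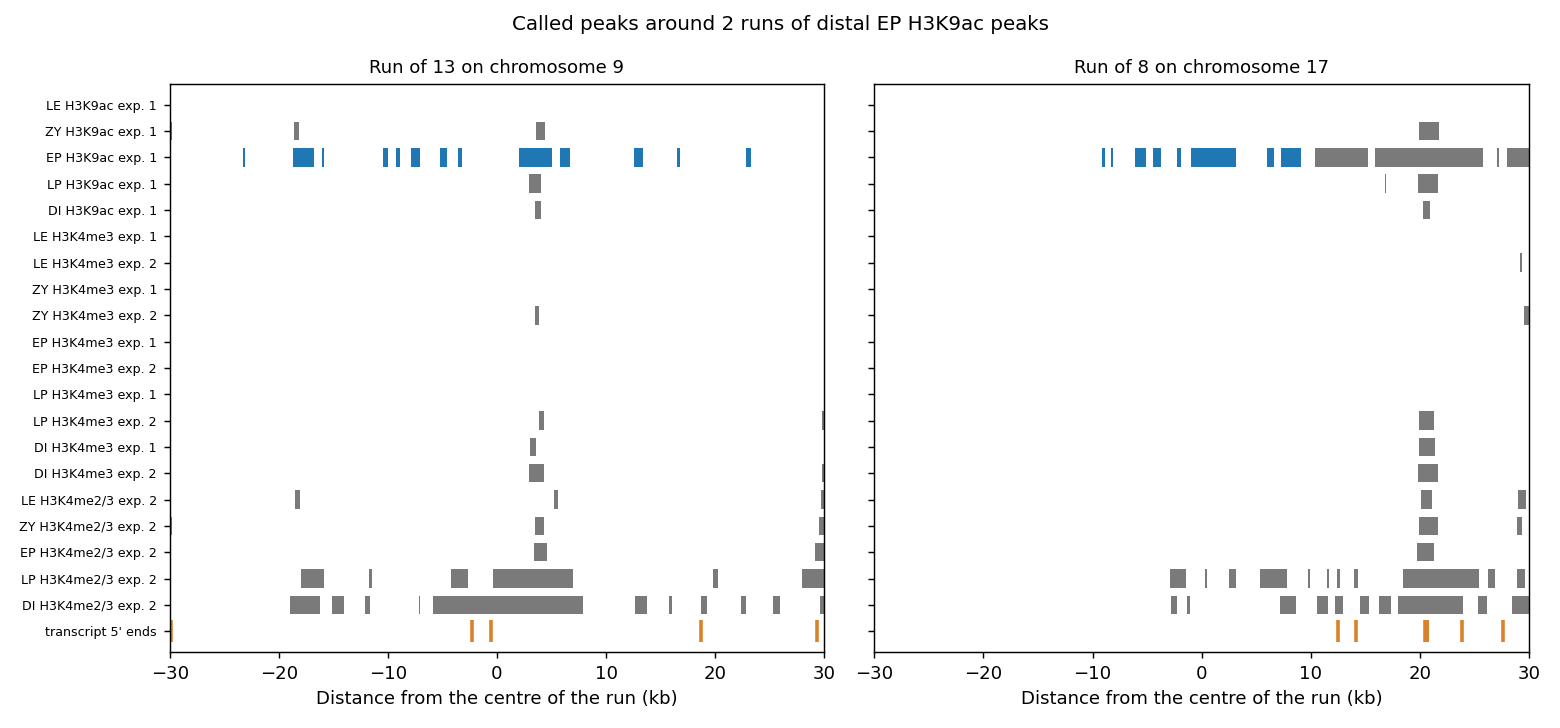
Called peaks of the 20 lists (rows) within 30 kb of the centre of a run, by distance from that centre in kb, for the run of 13 regions on chromosome 9 and the run of 8 on chromosome 17; blue bars are distal EP H3K9ac peaks, grey bars all other peaks and orange ticks 5′ ends of transcripts. H3K4me2/3 peaks cover more of both runs in LP and DI than in LE, ZY and EP, and H3K4me3 peaks are few.

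Other runs of 8 lay on chromosome 5, one around Mir7230 (113328606 to 113359015) and one upstream of the lincRNA gene Gm21221 (149813736 to 149832189). Runs of 7 lay on chromosome 10 between Gstt2 and Mif (75839987 to 75858295) and over Gm18514 and Stox1 (62656110 to 62688057). The first of these holds chr10:75839987-75842678 (2692 bp), with H3K4me2/3 in DI and no other peak. Runs of 6 lay beside Mir7210 on chromosome 14, beside 5330409N07Rik on chromosome 12 and over Mir7234 on chromosome 7. By single genes, Mir7214 had 8 regions with its 5′ end as the nearest, Gm21221 had 7, 5330409N07Rik and Mir7241 had 6 each, and Mir7210 and Mir7230 had 5 each.

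Marks in the runs differed from those of the regions outside them. H3K4me3 in both EP libraries was found at 0 of 102 regions in runs and at 91 of 692 outside. Any H3K4me3 peak was found at 18 (17.6%) and 466 (67.3%). H3K9ac in ZY was called at 8 (7.84%) and 282 (40.8%), and H3K9ac in LP at 12 (11.8%) and 62 (8.96%). The H3K4me2/3 calls in runs numbered 13 in LE, 9 in ZY, 17 in EP, 54 in LP and 54 in DI. Outside the runs H3K4me2/3 was called at 88.0% in EP and 86.7% in LP. These are counts over neighbouring regions of the same few loci, with no test.

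No other peak in any of the 19 other lists was found at 60 regions (7.56%), 37 of them in the runs. The share was 3.32% without the regions in runs and 24.9% when only the wider peaks of each other list, those at or above its median width, were counted. The 5 widest of the 60 were all in runs. They were chr17:27344381-27347684 (3304 bp, in an exon of Gm10505) and chr17:27348762-27351163 (2402 bp), chr11:103441402-103442791 (1390 bp, 19666 bp from Gm39397), chr14:24092203-24093379 (1177 bp, 3326 bp from Mir7210) and chr5:149813736-149814856 (1121 bp, 1985 bp from Gm21221). Each of these was called in the EP H3K9ac list alone.

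The composition of the regions lay between that of TSS peaks and that of the surroundings. The surroundings were windows 20 kb away that touched no TSS and no EP H3K9ac peak. Median GC content was 51.0% (quartiles 47.2 and 56.8), against 63.4% for TSS peaks, 45.9% for the other distal ZY H3K9ac peaks and 44.6% for windows of the same widths 20 kb away. The median ratio of observed to expected CpG was 0.412, 0.801, 0.198 and 0.180 in the same order. Among the classes this ratio was highest at 0.642 in the 145 regions with H3K4me3 both early and later, and lowest at 0.208 in the 60 regions with neither methylation mark. In the runs it was 0.213 and outside them 0.450.

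Short words were searched on both strands in 300 bp windows at the centres of the peaks. The MYB words, TAACGG or TAACTG with either T or C as the first letter, were held by 291 regions (36.6%), 24.3% of TSS peaks, 28.0% of windows 2000 bp from the centres and 28.3% of 32851 RefSeq promoters of the same length. The GC box GGGCGG was held by 21.8% of regions, 63.7% of TSS peaks, 6.05% of the flanking windows and 35.7% of promoters. The CTCF core words AGGGGGC and AGGTGGC were held by 11.5%, 19.5%, 8.00% and 16.01%, and CCAAT by 31.6%, 22.5%, 34.1% and 37.4%. For the CRE TGACGTCA the shares were 1.13%, 1.87%, 0.252% and 1.79%, for the NRF1 core GCATGCGC 2.90%, 3.29%, 0.189% and 2.71%, for the RFX word GTTGCCA 2.39%, 2.99%, 3.40% and 4.38%, and for the E-box CACGTG 6.68%, 7.15%, 4.72% and 7.15%. No word contains another. A word is a match of letters and not a bound site.

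H3K9ac at all 5 stages was called at 17 regions. They were narrow, with a median of 242 bp, and all 17 had H3K4me3 in both EP libraries. Their median soft-masked share, the share of bases marked as repeats in the genome file, was 100%, against 10.6% over all regions. At least 90% of the bases were soft-masked in 9 of the 17, in 25 of the 794 regions (3.15%) and in 2 of the 6950 TSS peaks. No list of blacklisted regions was used here, so that its part in these calls was not tested. Without the 25 regions the share with H3K4me3 in both EP libraries was 9.75% in place of 11.5%, and that with H3K9ac in LP was 7.80% in place of 9.32%.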

How the data were processed

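The deposited files are peak positions (chromosome, start and end), called by the authors for each library after alignment with BWA 0.7.12 to mm10 and with MACS2 2.1.2 in broad mode. For H3K9ac only a general software statement gives the caller, and its control is not given in the sources used here. The lists cover chromosomes 1 to 19 and hold no counts, so depth is unknown. Of 51 samples, 31 were not analysed here.

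TSSs were GENCODE M21 5′ ends (GRCm38, the build of the files). A region was overlapped from 1 bp on. Shares have exact binomial 95% intervals. Exact permutation tests over the 10 H3K4me3 libraries were adjusted by Benjamini-Hochberg over 4 tests (threshold 0.05). The tests against TSS peaks and against distal ZY peaks are given without p because their sets were selected by position or by stage. The tests between stages, given with p, also use regions selected by an H3K9ac call in EP, experiment 1. The part of that selection in them was not tested. The p-values measure the spread between these libraries, which holds differences between pooled stages and may in part be technical.

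The regions, gene lists, words and tests were chosen with earlier results of these data known. Regions were named by rule: the widest overall and in set classes, those nearest the 500 bp limit, those at listed genes, and genes with most regions. The runs, the 17 regions at all stages and Mir7230 were chosen after their values were seen. On simulated lists, 54 of 54 planted shares were recovered. Python 3.11.15, numpy 2.4.6, scipy 1.17.1 and pysam 0.24.0 were used.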

Additional observations from a re-analysis of the deposited data

Results flagged for a closer look

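The share of regions with an H3K4me3 peak at the 794 distal EP H3K9ac peaks, minus that at the 7095 other distal ZY H3K9ac peaks, differed by −42.7 percentage points between the 4 LE and ZY libraries and the 6 later libraries. The sets were selected on H3K9ac of different stages, and the second leaves out what overlaps the first, so the value is a description of sets chosen by stage and supports no difference in course beyond that choice.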

How the results depend on the processing

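Of 196 alternative values, 155 were labelled unchanged, 39 moved, 1 stronger and 1 weaker. For contrasts, unchanged meant the same direction and side of the threshold, and for shares a move within the counting interval. The limit for the number of regions was looser. Counts of 643 (TSS window of 2000 bp) and 1116 (protein-coding 5′ ends alone), in place of 794, were labelled unchanged. The untested contrasts were also labelled by a threshold, and no conclusion is drawn from those labels. Only contrasts could change direction, and none of them did. Leaving out each library in turn gave −15.3 to −5.62 points for EP against the other stages and −9.73 to −2.25 for LE and ZY against later stages, and neither call changed. For the untested contrasts it gave −57.3 to −53.9 for regions against TSS peaks and −50.7 to −31.3 for regions against distal ZY peaks.

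With equal list sizes the difference of early against later stages was −10.6 points (exact permutation, adjusted p = 0.0127), past the threshold. Correlations of the experiment differences over regions ran from −0.125 to 0.181 between stages. Being differences of calls at selected regions, they cannot decide whether the experiment number pairs the samples. With the replicate block the regions minus TSS peaks gave −55.1 points over 5 stage means. With 5 means the exact permutation test cannot reach the threshold, so no p is given.

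With protein-coding 5′ ends alone, which also admits more regions, the shares were 42.2% for ZY H3K9ac, 11.8% for LP H3K9ac, 15.9% for H3K4me3 in both EP libraries and 83.8% for EP H3K4me2/3. Among the 204 regions at least as wide as the median of the EP H3K9ac list the first 3 were 43.1%, 18.6% and 17.2%. With 50% of a region overlapped the 4 shares were 29.1%, 4.41%, 7.05% and 72.4%, and counting wider peaks only they were 14.1%, 5.04%, 3.02% and 50.4%. With equal list sizes H3K4me3 in both EP libraries was 7.18%. With RefSeq 5′ ends added, an alternative chosen after seeing the data, it was 8.20% and EP H3K4me2/3 75.4%. Without the regions in runs, likewise chosen later, ZY H3K9ac was 40.8% and EP H3K4me2/3 88.0%. The cause was not tested. Depth is unknown, so that a region without a peak may carry the mark.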

Other observations

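The runs of regions were not compared with a map of piRNA loci, and the regions that lie in repeats were not compared with a list of blacklisted regions.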
